A study of Mus musculus with 4 samples.

Results

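P2 receptors are the cell surface receptors for extracellular nucleotides. The 10 genes described here are P2rx1, P2rx4 and P2rx7, which encode P2X ion channels, and P2ry1, P2ry2, P2ry6, P2ry10, P2ry12, P2ry13 and P2ry14, which encode P2Y receptors coupled to G proteins. They were taken by name from the 54532 genes of the deposited tables, and all 10 were found. Their RNA was measured by RNA-seq in PMN-MDSC, immature cells of the neutrophil lineage that suppress lymphocytes, taken from newborn C57BL/6 mouse spleen. The cells of 1 group had spent 5 days with NECA, an agonist of adenosine receptors that resists breakdown. Those of the other group received DMSO, the vehicle, and each group had 2 libraries. The labels state neither the dose of NECA nor the origin of the libraries (mice, cultures or one pool), so p-values measure only the spread between these libraries, which may be technical.

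P2X receptors are cation channels that ATP opens directly, and P2Y receptors respond to ATP, ADP, UTP, UDP or UDP-glucose. Ectonucleotidases on the same cells break ATP and ADP down to AMP and adenosine, so nucleotide signals and the adenosine signal that NECA imitates lie on either side of the same enzymes. In neutrophils ATP and ADP released by the cell act back on its own receptors during chemotaxis, and P2X7 is best known in macrophages, where it triggers the inflammasome.

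Total counts ran from 15864120 to 18712625 per library. The 14 neutrophil markers were present in all 4 libraries, led by the granule protein gene Ngp, whose level ran from 29075 to 29790 CPM (counts scaled to equal depth, on library sizes scaled by the TMM method). Of these markers 2, the collagenase and gelatinase genes Mmp8 and Mmp9, were higher with NECA, by 0.23 each on the log2 scale, and 0 were lower, and the number called higher ran from 0 to 8 when single libraries were left out. By edgeR's quasi-likelihood test over 13083 genes, NECA libraries had 46 genes (0.352%) higher and 128 genes (0.978%) lower at an adjusted p under 0.05. With library size alone as the scale these were 21 and 217.

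Levels of different genes were compared as deposited FPKM, which divides by gene length. P2rx1, an ATP-gated channel of neutrophils and platelets, was the most abundant member, at 32.5 and 33.2 FPKM in the DMSO libraries, beside 30.5 and 32.1 FPKM in the NECA libraries. P2ry13, a Gi-coupled ADP receptor, followed at 9.09 and 9.06 FPKM in the DMSO libraries, beside 11.8 and 9.43 FPKM in the NECA libraries. P2ry6, the UDP receptor, had 3.77 and 3.37 against 4.59 and 3.59 FPKM. P2rx1 thus stood 3.25-fold above P2ry13 in the mean of the 4 libraries, and P2ry13 stood 2.57-fold above P2ry6, with no overlap between the values of neighbouring genes.

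The other members lay below 3 FPKM. P2ry2, the receptor for ATP and UTP, had 2.04 to 2.62 FPKM, P2ry1, a Gq-coupled ADP receptor, 1.54 to 1.93 FPKM, P2rx4, an ATP-gated channel of the cell surface and lysosomes, 1.29 to 1.49 FPKM, and P2ry12, the ADP receptor of platelets, 1.12 to 1.50 FPKM. In this order P2ry2 lay above P2ry1, and P2ry1 above P2rx4, with no overlap over the 4 libraries, while the values of P2rx4 and P2ry12 overlapped. P2rx7 had 0.163 to 0.620 FPKM and overlapped P2ry10, a receptor for lysophosphatidylserine, at 0.0217 to 0.177 FPKM. P2ry10 in turn overlapped P2ry14, the UDP-glucose receptor, which was lowest at 0.0149 to 0.0518 FPKM. This order depends on the length used. Annotated exons cover 4291 bases in P2ry1, 7025 in P2rx4 and 11059 in P2ry14. In CPM, which does not divide by length, P2rx4 (9.08 to 10.5) lay above P2ry1 (6.59 to 8.27). P2ry14 (0.165 to 0.575 CPM) was then level with P2ry10 (0.0646 to 0.531 CPM). Which transcripts the cells make was not tested.

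**Figure D1:**
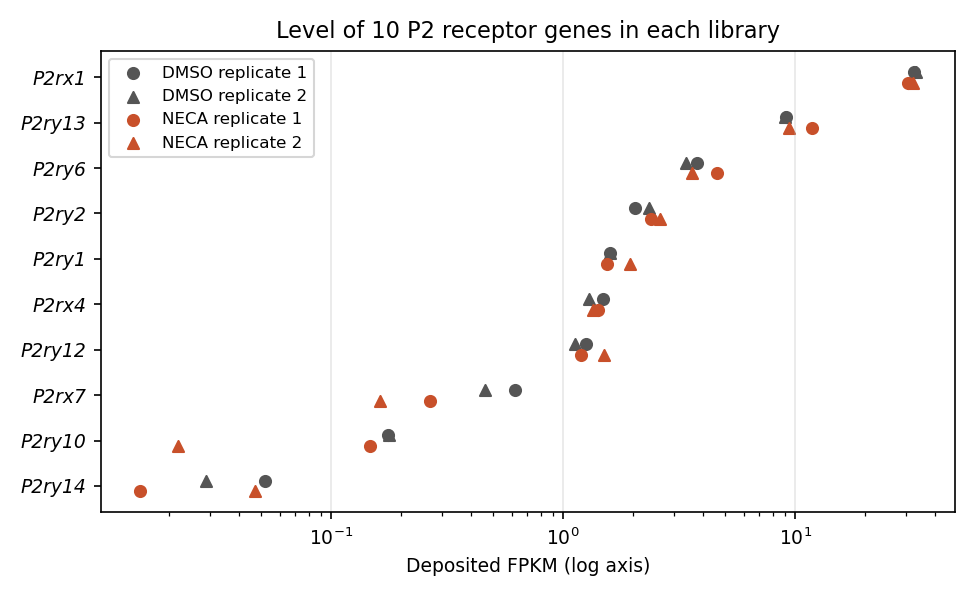
Deposited FPKM (horizontal log axis) of the 10 P2 receptor genes in each library, ordered by their mean; grey marks DMSO, orange NECA, circles replicate 1 and triangles replicate 2. P2rx1 sits between 30.5 and 33.2 FPKM, and P2rx7 has both NECA values (0.267 and 0.163 FPKM) to the left of both DMSO values (0.620 and 0.461 FPKM).

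Summed over the 10 genes, the level was 52.6 and 52.6 FPKM in the DMSO libraries, beside 53.9 and 52.7 FPKM in the NECA libraries. P2rx1 alone held 61.8% and 63.0% of that sum with DMSO and 56.6% and 60.8% with NECA. Within the P2Y receptors, P2ry13 held 50.6% and 51.2% in the DMSO libraries, beside 54.5% and 49.3% in the NECA libraries. P2rx1 thus made up most of the summed level in each of the 4 libraries.

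Several members are neighbours in the genome (GENCODE M21, GRCm38), and P2rx1 (chromosome 11, 72999103 to 73015200), P2ry1 (chromosome 3, 61002795 to 61008982) and P2ry10 (chromosome X, 107088492 to 107104974) lie apart from the rest. P2rx7 (chromosome 5, 122643911 to 122691432) ends 16.1 kb before P2rx4 (122707544 to 122729738) on the same strand. P2ry6 (100937630 to 100974649) and P2ry2 (100996568 to 101012866) lie 21.9 kb apart on chromosome 7. P2ry14 (59113855 to 59153618), P2ry13 (59207892 to 59210882) and P2ry12 (59216272 to 59262871) lie within the gene Med12l on chromosome 3, on its opposite strand, with 5.4 kb between P2ry13 and P2ry12. Their exons share 0, 0 and 9 bases with exons of Med12l, which had 82 and 75 counts in the DMSO libraries, beside 76 and 68 in the NECA libraries. P2ry1 shares 992 exon bases with the antisense gene Gm37035, which had at most 2 counts in a library. Whether counting used strand is not stated, so reads of P2ry1 and of this partner cannot be told apart there. P2ry10 shares an identical stretch of 160 bases with P2ry10b, so counts of both are uncertain. Neighbours differed in level, with P2ry13 at 6.28 to 9.96 times the FPKM of P2ry12 over the 4 libraries.

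The 250 bases before the RefSeq transcription start (GRCm38.p6, 5′ to 3′ on the gene's strand) are shown for the most abundant channel gene, the most abundant P2Y gene, and the pair P2rx7 and P2rx4, which lie side by side and had log2 fold changes of -1.32 and -0.02 with NECA. Capitals mark matches, on either strand, to TGACG (a part of the cAMP response element), TGAGTCA (AP-1) or GAGGAA (core of the PU.1 motif).
P2rx1, chr11:72998895-72999144, plus strand: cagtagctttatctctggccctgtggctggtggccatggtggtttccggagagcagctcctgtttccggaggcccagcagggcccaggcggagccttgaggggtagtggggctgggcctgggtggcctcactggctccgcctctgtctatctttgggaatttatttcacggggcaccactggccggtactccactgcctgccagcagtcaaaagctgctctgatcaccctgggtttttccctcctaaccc
P2ry13, chr3:59210883-59211132, minus strand: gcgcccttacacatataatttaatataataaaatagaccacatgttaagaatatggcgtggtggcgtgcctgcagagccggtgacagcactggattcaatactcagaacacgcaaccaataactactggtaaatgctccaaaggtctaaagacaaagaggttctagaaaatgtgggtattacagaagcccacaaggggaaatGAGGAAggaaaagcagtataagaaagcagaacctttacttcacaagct
P2rx7, chr5:122643677-122643926, plus strand: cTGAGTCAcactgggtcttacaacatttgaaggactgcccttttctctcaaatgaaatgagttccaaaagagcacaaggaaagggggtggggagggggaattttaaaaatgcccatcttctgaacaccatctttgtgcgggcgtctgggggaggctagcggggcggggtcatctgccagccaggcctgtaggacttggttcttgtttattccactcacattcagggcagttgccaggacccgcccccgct
P2rx4, chr5:122707294-122707543, plus strand: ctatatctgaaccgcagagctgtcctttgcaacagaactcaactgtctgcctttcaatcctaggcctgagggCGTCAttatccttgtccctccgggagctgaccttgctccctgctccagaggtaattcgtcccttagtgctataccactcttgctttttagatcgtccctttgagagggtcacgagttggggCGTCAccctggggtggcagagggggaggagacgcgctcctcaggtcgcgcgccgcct
The P2rx4 window held 2 matches to TGACG, both on the opposite strand, and the P2rx7 window held 1 match to TGAGTCA. The P2ry13 window held 1 match to GAGGAA, and the P2rx1 window none of these. Of 32851 windows of the same length, 17.8% held TGACG, 4.46% TGAGTCA and 23.3% GAGGAA, and the full cAMP response element TGACGTCA, which contains TGACG, was in 1.55% of them and in none of the windows of the members. RefSeq windows matched 9 of the 10 members, and P2rx7 has a second annotated start whose window held no match. A match is a description of the letters and not a measured binding site.

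Whether NECA changed the receptors was asked in the comparison of the 2 groups. None of the 8 members that passed the filter on low counts was called by edgeR (0 higher and 0 lower, against 0.352% and 0.978% of all genes tested), and 1 of them, P2rx7, had an unadjusted p under 0.05, as did 15.7% of all genes tested. DESeq2 and limma on log2 FPKM also called 0 members. The median log2 fold change of the 8 was 0.14, beside -0.0065 over all genes tested. With library size alone these medians were 0.07 and -0.079. Both NECA libraries lay above both DMSO libraries for 2 of the 8 (P2ry2 and P2ry13), as for 22.4% of all genes tested, and below both for 2 (P2rx1 and P2rx7), as for 24.3%. These shares were near the background.

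P2rx7 had the largest difference of the members. It had 71 and 52 counts in the DMSO libraries, beside 29 and 15 in the NECA libraries, or 3.71 and 2.76 CPM against 1.59 and 0.969 CPM. Both NECA libraries were lower than both DMSO libraries, and NECA replicate 2 was the lowest. The mean was 3.24 ± 0.67 CPM with DMSO and 1.28 ± 0.44 CPM with NECA (SD, n = 2 each). The log2 fold change was -1.32 (SE 0.39, 95% interval -2.18 to -0.46, not adjusted and with the spread borrowed in part from other genes), which did not pass over all genes (edgeR, adjusted p = 0.121). Without NECA replicate 1 it stood at -1.73 with an adjusted p of 0.0365. That fit has 1 NECA library, which is assumed to vary like the DMSO pair, and it called 594 genes lower in all, against 128 with all libraries. With genes of low counts left in P2rx7 passed at -1.32 (adjusted p = 0.0185). Over all alternatives its adjusted p ran from 0.0185 to 0.41, and every alternative gave a value below 0.

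The channel gene P2rx4, which lies beside P2rx7, had 10.5 and 9.08 CPM in the DMSO libraries, beside 9.94 and 9.37 CPM in the NECA libraries, so that the groups overlapped (log2 fold change -0.02, SE 0.18, 95% interval -0.41 to 0.37). The ratio of P2rx4 to P2rx7 in FPKM was 2.41 and 2.79 with DMSO and 5.30 and 8.21 with NECA. The difference between the changes of these genes was not tested.

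Markers of other cell types were measured in the same libraries. Of the 20 monocyte and macrophage markers, all tested, 15 were lower and 0 higher with NECA (median log2 fold change -1.49), and their summed level was 869 and 752 CPM in the DMSO libraries, beside 415 and 326 CPM in the NECA libraries, with none at 0. The adhesion molecule gene Vcam1 fell by 1.73 and the receptor kinase gene Axl by 1.49 on the log2 scale. Csf1r, the most abundant of the list, stood at -0.35 (edgeR, adjusted p = 0.0964). It passed with DESeq2 (adjusted p = 0.0426), and in edgeR with genes of low counts left in (6.65e-05) and with the replicate as a block (0.00962). With limma it did not pass, and when single libraries were left out it ran from -0.49 to -0.18. B cell markers had summed levels of 152 and 162 CPM in the DMSO libraries, beside 83.3 and 14.2 CPM in the NECA libraries. Of these 12 markers 1, Blnk, was lower and 0 higher, and only Ebf1 was at 0, in NECA replicate 2. T and NK cell markers summed to 33.1 and 36.3 against 21.2 and 20.8 CPM, with 0 of 8 tested called. Cd3d, the most abundant, had 15.8 and 19.4 against 13.8 and 15.6 CPM (log2 fold change -0.26). All 8 tested genes (median -1.51) had both NECA libraries below both DMSO libraries, as did 24.3% of all genes tested. Cd3e and Klrb1c were at 0 in both NECA libraries, and Ncr1 in those and in DMSO replicate 2. The part of these cells in the values of P2rx7 was not tested. In bulk RNA fewer cells of a type and less RNA per cell cannot be told apart. Summed levels of dendritic cell markers were 23.2 and 21.1 against 13.7 and 7.50 CPM (1 of 5 tested lower, Btla), of erythroid markers 1234 and 534 against 377 and 59.6 CPM (0 of 11 called), and of basophil, mast cell and eosinophil markers 445 and 446 against 460 and 432 CPM (1 of 11 lower, Ccr3). Most of this last sum came from Hdc, the histidine decarboxylase gene, at 324 and 319 against 371 and 368 CPM, while 9 of the 11 tested genes of that list lay below 0 and 7 had both NECA libraries below both DMSO libraries (median log2 fold change -0.78). The number of lower macrophage markers ran from 11 to 18 when single libraries were left out and was 0 with limma. Without NECA replicate 1 the numbers lower were 12 for B cell, 8 for erythroid, 4 for basophil, mast cell and eosinophil and 2 for T and NK cell markers, and without NECA replicate 2 they were 8, 7, 4 and 1. These fits take the spread from the DMSO pair alone and so leave out the difference between the NECA libraries. Without either DMSO library all 4 numbers were 0.

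**Figure D2:**
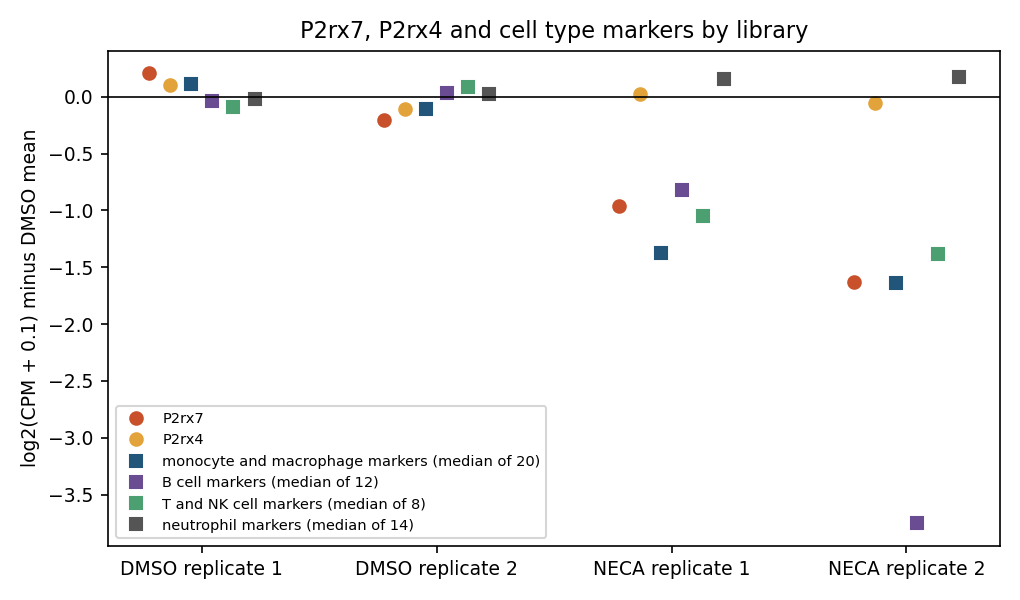
log2(CPM + 0.1) of P2rx7, P2rx4 and the medians of 4 marker lists in each library, relative to the mean of the DMSO libraries (vertical axis); circles are single genes and squares list medians. In NECA replicates 1 and 2, P2rx7 lies at -0.96 and -1.63, the macrophage median at -1.37 and -1.64, the T and NK cell median at -1.05 and -1.38, the B cell median at -0.82 and -3.75, the neutrophil median at 0.15 and 0.17, and P2rx4 at 0.03 and -0.06.

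By the distance between log2 CPM profiles, centred on each gene's mean over the 4 libraries, the list genes most like P2rx7 among 153 candidates were Apoe (distance 0.166 in log2 units) and Siglec1 (0.204), both from the macrophage list, and the calcium channel gene Itpr3 (0.201). For P2rx1 they were the cation channel gene Trpm7 (0.0419), the kinase gene Nek7 (0.0601) and the ectonucleotidase gene Entpd1 (0.0620), and for P2ry13 they were P2ry6 (0.116), Lrrc8a (0.134) and the G protein gene Gnai2 (0.168). These distances rest on 4 libraries and are descriptions only.

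P2rx1 was measured most precisely, with 1299 to 1645 counts per library. It had 85.5 and 87.4 CPM in the DMSO libraries, beside 80.0 and 83.9 CPM in the NECA libraries, so that both NECA libraries lay slightly lower. The log2 fold change was -0.08 (SE 0.07, adjusted p = 0.664), and the 95% interval from -0.23 to 0.07 corresponds to a fold change between 0.853 and 1.05. Platelets carry P2X1, P2Y1 and P2Y12 as well. Of the 10 megakaryocyte and platelet markers 0 of 5 tested were called, with 2 above 0 and 3 below (median log2 fold change -0.07). The platelet chemokine gene Pf4 had 0.679 and 0.690 CPM in the DMSO libraries, beside 0.220 and 0.258 CPM in the NECA libraries. Itga2b had 5.23 and 4.62 against 3.68 and 3.30 CPM. Gp1ba had 2.93 and 1.75 against 2.80 and 2.52 CPM, and Gp9 1.57 and 0.690 against 0.989 and 1.16 CPM. Gp6 and Gp1bb were at 0 in all libraries but NECA replicate 1. The list summed to 90.2 and 76.7 CPM in the DMSO libraries, beside 88.7 and 72.3 CPM in the NECA libraries, most of it from the integrin gene Itgb3 (78.1 and 66.9 against 80.3 and 64.8 CPM).

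Among the ADP receptors, P2ry13 had 23.0 and 23.0 CPM in the DMSO libraries, beside 29.9 and 23.8 CPM in the NECA libraries. Both NECA libraries were higher, and NECA replicate 2 lay closest to the DMSO libraries. The log2 fold change was 0.22 (SE 0.13, 95% interval -0.06 to 0.50, adjusted p = 0.44), and without NECA replicate 1 it was 0.05. P2ry12 had 3.19 and 2.87 against 3.02 and 3.81 CPM, with overlapping groups (0.17, 95% interval -0.50 to 0.84, adjusted p = 0.859). P2ry1 had 6.85 and 6.85 against 6.59 and 8.27 CPM, also with overlap (0.11, 95% interval -0.35 to 0.58, adjusted p = 0.867). The direction of P2ry12 and P2ry1 turned without NECA replicate 2, to -0.0036 and -0.06.

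Of the receptors for ATP, UTP and UDP, P2ry2, which couples to Gq, had 8.05 and 9.24 CPM in the DMSO libraries, beside 9.39 and 10.3 CPM in the NECA libraries. The groups did not overlap, but NECA replicate 1 lay only just above DMSO replicate 2 (log2 fold change 0.18, SE 0.19, 95% interval -0.22 to 0.59, adjusted p = 0.71). P2ry6 had 10.9 and 9.77 against 13.2 and 10.3 CPM, and its groups overlapped (0.19, 95% interval -0.21 to 0.59, adjusted p = 0.689). As folds, the interval of P2ry2 ran from 0.858 to 1.51 and that of P2ry6 from 0.866 to 1.51.

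**Figure D3:**
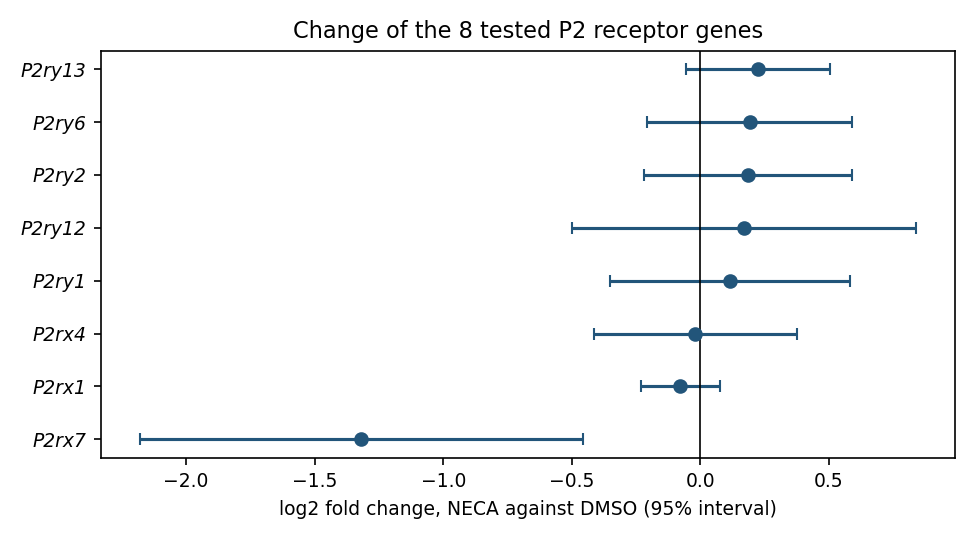
log2 fold change of NECA against DMSO (horizontal axis) with 95% intervals from edgeR's fit for the 8 tested members, each for the gene alone and not adjusted. The fit borrows part of each gene's spread from other genes. The interval of P2rx7 lies below 0, from -2.18 to -0.46, and the other 7 include 0; P2rx1 has the narrowest.

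P2ry10 and P2ry14 lay below the filter on low counts. With no filter all 10 members were tested, and P2rx7 was the 1 called. P2ry10 had 10 and 10 counts in the DMSO libraries, beside 8 and 1 in the NECA libraries, and NECA replicate 2 was the low one. The sums were 20 (exact Poisson 95% interval 12.2 to 30.9) and 9 (4.12 to 17.1). Scaled for depth, P2ry10 had 0.523 and 0.531 against 0.439 and 0.0646 CPM. Both NECA libraries thus lay below both DMSO libraries, as for 24.3% of all genes tested. That share leaves out genes below the filter, such as P2ry10. P2ry14 had 11 and 6 counts in the DMSO libraries, beside 3 and 8 in the NECA libraries, sums of 17 (9.90 to 27.2) and 11 (5.49 to 19.7), with overlapping groups. The intervals of both genes overlapped between groups. They cover counting error only and rest on sums not scaled for depth, and their overlap is not a test of a difference. Of the other 6 P2 receptor genes, P2ry10b had 40 and 36 counts in the DMSO libraries, beside 31 and 9 in the NECA libraries (log2 fold change -0.78, adjusted p = 0.515), and P2rx3 had 9 and 14 against 5 and 12. P2rx2, P2rx5, P2rx6 and P2ry4 had at most 4 counts in any library. B cell markers summed to 152 and 162 CPM in the DMSO libraries, beside 83.3 and 14.2 CPM in the NECA libraries. The part of their cells in the values of P2ry10 and P2ry10b was not tested.

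The genes that P2 receptors work with were followed in lists. In the list of Gq and G12/13 signalling, 1 of 12 tested genes was higher and 2 were lower (median log2 fold change 0.08). Plcb3, a phospholipase C that Gq activates, rose from 108 and 114 CPM to 144 and 136 CPM (log2 fold change 0.33, SE 0.07, edgeR, adjusted p = 0.033). Itpr1 and Itpr3 encode channels that release calcium from the endoplasmic reticulum. Itpr1 fell from 9.56 and 9.29 CPM to 3.90 and 4.39 CPM (-1.19, SE 0.22, adjusted p = 0.0207), and Itpr3 from 10.8 and 9.51 CPM to 5.60 and 3.17 CPM (-1.20, SE 0.26, adjusted p = 0.0492). Prkcd, a protein kinase C gene and the most abundant of the list, had 538 and 553 CPM in the DMSO libraries, beside 612 and 612 CPM in the NECA libraries (0.17, adjusted p = 0.112), and passed with DESeq2 (adjusted p = 0.0469) and with genes of low counts left in (0.0398). The macrophage markers (15 of 20 lower, summed level 869 and 752 against 415 and 326 CPM) were lower in the same libraries as Itpr1 and Itpr3. Medians also lay below 0 for B cell (log2 fold change -1.64), T and NK cell (-1.51) and erythroid markers (-1.85). Of these lists 1 of 12, 0 of 8 and 0 of 11 tested genes were called lower. The part of any of these markers' cells in the falls of Itpr1 and Itpr3 was not tested.

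The 3 calls were lost without DMSO replicate 1 (adjusted p = 0.186 for Plcb3, 0.131 for Itpr1 and 0.206 for Itpr3) and without DMSO replicate 2 (0.0787, 0.0883 and 0.131). Itpr3 also missed the threshold without NECA replicate 2 (adjusted p = 0.0611) and with the size factors of DESeq2 in edgeR (0.0562), and Plcb3 with library size alone (0.0707). With limma on log2 FPKM none of the 3 passed. Over all alternatives the adjusted p ran from 0.000376 to 0.29 for Plcb3, from 9.37e-05 to 0.401 for Itpr1 and from 4.89e-06 to 0.378 for Itpr3.

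No gene passed in the other lists. For Gi signalling, all 8 tested genes lay above 0 (median 0.10, and 0.03 with library size alone), with Gnai2, the most abundant, at 1714 and 1799 CPM in the DMSO libraries, beside 2007 and 1824 CPM in the NECA libraries (0.13, adjusted p = 0.253). Gnai2 was at 0.055 without NECA replicate 1 and at 0.193 without NECA replicate 2, where it passed (adjusted p = 0.0174) with the spread taken from the DMSO pair alone. The 14 neutrophil markers all lay above 0 as well (median 0.14), 13 of them with both NECA libraries above both DMSO libraries, and their part in the values of the Gi genes and Plcb3 was not tested. Of the nucleotide release genes 7 were tested (median 0.06, and -0.02 with library size alone). Slc17a9, the vesicular nucleotide transporter, was at 168 and 161 CPM under DMSO and 184 and 188 under NECA (0.17, adjusted p = 0.177). The channel gene Panx1 was at 1.78 and 1.86 against 1.10 and 0.969 CPM (-0.81, adjusted p = 0.424). Of the ectonucleotidase list 9 genes were tested (median 0.06, and -0.01 with library size alone). The list included Entpd5, Entpd7 and Enpp2, family members whose main role is not the breakdown of ATP or ADP outside the cell. Entpd3, which hydrolyses ATP and ADP, had 4.08 and 5.79 CPM in the DMSO libraries, beside 8.90 and 8.85 CPM in the NECA libraries (0.85, adjusted p = 0.0962). Enpp1, which splits ATP to AMP, had 1.36 and 1.54 against 0.659 and 0.452 CPM (-1.36, adjusted p = 0.246). Entpd3 passed with genes of low counts left in (adjusted p = 0.0144). Acpp, the most abundant of the list, was at 227 and 224 against 231 and 240 CPM (0.06). Nt5e was at 122 and 117 against 134 and 128 CPM (0.14), and Entpd1 at 104 and 104 against 100 and 99.3 CPM (-0.06).

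The genes around P2X7 signalling and calcium entry were not called either. Of the 11 tested genes of the P2X7 list (median -0.09), the pore protein gene Gsdmd was the most abundant, at 196 and 189 against 199 and 200 CPM, and the cytokine gene Il18 had 4.13 and 4.83 against 1.92 and 1.87 CPM (-1.24, adjusted p = 0.0769). Il18 passed with genes of low counts left in (adjusted p = 0.00768). Macrophage (median -1.49), B cell (-1.64), T and NK cell (-1.51) and erythroid markers (-1.85) had medians below 0 in the same libraries. Called lower, in that order, were 15 of 20, 1 of 12, 0 of 8 and 0 of 11 tested genes. The part of these markers' cells was not tested. The list headed store-operated calcium entry had 8 tested genes (median 0.12). It held Stim and Orai genes of that pathway and also Trpm2, Trpv2 and Trpm7, which encode other cation channels. The store sensor gene Stim1 stood at 125 and 133 CPM in the DMSO libraries, beside 155 and 153 CPM in the NECA libraries (0.25, adjusted p = 0.0794). Stim1 passed with DESeq2 (adjusted p = 0.048) and with genes of low counts left in (0.0144). Trpm2, a calcium-permeable channel gene and the most abundant of that list, was at 372 and 355 against 410 and 432 CPM (0.21, adjusted p = 0.0816), and passed with DESeq2 (adjusted p = 0.0238), with genes of low counts left in (0.0069) and without NECA replicate 1 (0.00745). Of the neighbours on chromosome 3, 4 were tested (median -0.50). Gpr171, a receptor gene also inside Med12l, had 0.732 and 1.54 CPM in the DMSO libraries, beside 0.330 and 0 CPM in the NECA libraries (-2.65, adjusted p = 0.177). It passed with genes of low counts left in (adjusted p = 0.0293). It also did so when NECA replicate 1 was dropped (adjusted p = 0.00756), where the remaining NECA library is at 0 and the fitted fold is no bound. Mbnl1, the most abundant, stood at -0.03.

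**Figure D4:**
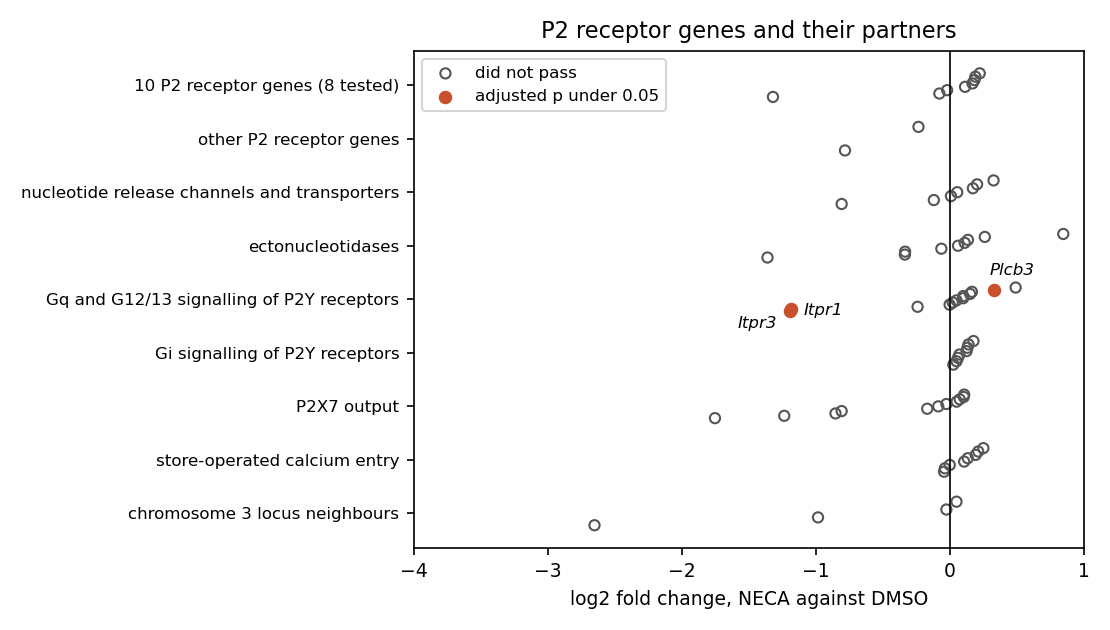
log2 fold change of NECA against DMSO (horizontal axis) of every tested gene in the member list and the 8 lists of partner genes; each circle is a gene, filled where the adjusted p was under 0.05. Plcb3 (0.33), Itpr1 (-1.19) and Itpr3 (-1.20) are the filled points, and no P2 receptor gene is filled.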

How the data were processed

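RNA-seq libraries were made, per the labels' protocols, with SMARTer cDNA synthesis, PCR amplification, enzymatic fragmentation and paired-end sequencing. The submitters' processing notes name HISAT, StringTie and edgeR with mm10 and GRCm38 as builds. For tool versions, read counting and strand, details were not given in the sources used here. The authors deposited a raw count and an FPKM value per gene and library. Counts were tested with edgeR 4.0.16 in R 4.3.3 (quasi-likelihood test, default filter with a minimum count of 10, TMM scaling, Benjamini-Hochberg adjustment over 13083 genes, threshold 0.05), NECA against DMSO, with 2 residual degrees of freedom, and the method was checked on simulated data. CPM used the same scaling, and deposited FPKM served to compare levels between genes. Alternatives were DESeq2 1.42.0, limma 3.58.1 on log2(FPKM + 0.1) and log2(FPKM + 1), other scalings and filters, a replicate block and leaving out each library. Positions came from GENCODE M21 and promoter windows from RefSeq. All 10 receptors are given. From partner lists, genes were named among the 3 tested with the smallest p and the most abundant. From marker lists, they were named among the 2 with the smallest p and the most abundant. Not every gene under this rule is printed. Genes nearest to a receptor by profile were named as well. Markers at 0, or needed beside them, were named after their values were seen. The receptors and lists were chosen with earlier results of these data known. Intervals on counts cover counting error only. Intervals on log2 fold changes use degrees of freedom borrowed in part from other genes, beyond the 2 residual ones.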

Additional observations from a re-analysis of the deposited data

How the results depend on the processing

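P2rx7 was the only receptor called under any alternative. It was the 1 receptor lower with low-count genes left in (-1.32, adjusted p = 0.0185) and the 1 lower when NECA replicate 1 was left out (-1.73, adjusted p = 0.0365). Each fit that leaves out a library has 1 library in that group, which is assumed to vary like the other group's pair. When single libraries were left out, its log2 fold change ran from -1.73 to -1.02 and the number of receptors called lower from 0 to 1. In the same settings the log2 fold change crossed 0 for P2rx4 (-0.117 to 0.0944), P2ry1 (-0.0553 to 0.272), P2ry12 (-0.00358 to 0.332), P2ry6 (-0.00126 to 0.355), P2rx3 (-1.12 to 0.35), Mbnl1 (-0.0416 to 0.000783) and Itgb3 (-0.162 to 0.147). With library size alone the direction turned for Acpp (-0.0106), Gsdmd (-0.0210), Ngp (-0.0487) and Itgb3 (-0.0703). Itgb3 also turned with at least 20 counts (-0.00264) and with the replicate block (-0.00234).

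Over all genes, 46 were higher and 128 lower. The numbers were 21 and 217 with library size alone, 285 and 590 with low-count genes left in, 141 and 157 with DESeq2, 0 and 0 with limma at either pseudocount (1964 and 1984 genes at an unadjusted p under 0.05), and 123 and 298 with the replicate block. When single libraries were left out they ran from 8 to 227 higher and from 45 to 594 lower. The labels do not say that replicate numbers pair the libraries, and deviations of same-numbered libraries correlated at 0.02. With the replicate as a block P2rx7 was at -1.35 (adjusted p = 0.0791). The cause of these changes was not tested. With 2 libraries a group, intervals are wide for receptors with few counts.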
